A study of Mus musculus with 2 samples.

Results

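The thyroid hormone supply and sensing genes described here were 9 genes named by their function: the receptor genes Thra and Thrb, the deiodinase genes Dio1, Dio2 and Dio3, the transporter genes Slc16a10, Slco1c1 and Slc7a8, and Crym, which encodes a cytosolic protein that binds T3. A TR binding site (TRBS) is a peak of chromatin bound by the receptor TRα1, and it was assigned to one of these genes when its summit, where most ChIP fragments pile up, lay within 100 kb of the transcription start site (TSS). Of the 5107 TRBS in the deposited list, 14 met this rule, and 5 of them lay within 30 kb, the linking distance of the study. The rule itself uses function and distance, and no measured strength, but the genes were chosen with earlier results of these data known.

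Brown adipose tissue was taken from adult C57BL/6J males, aged 8 to 12 weeks, in which TRα1 with a GS tag was expressed in brown adipocytes. All mice had eaten food with propylthiouracil, a drug that blocks thyroid hormone synthesis, for 2 weeks, and had then been given thyroid hormone during 24 h. The group held 1 ChIP library and the control 1 input library, with no replicate, so the data allow no test between conditions. TRBS of hypothyroid mice without hormone were not analysed here, and neither the effect of the hormone on occupancy nor the number of animals per library can be read from this list. The tissue was crosslinked with disuccinimidyl glutarate and then formaldehyde, and the promoter that drove the tagged receptor is not given in the sources used here. The data describe a tagged TRα1 and hold no measurement of TRβ binding. They also hold no RNA, so the labelled cell type could not be checked by expression. Among 4 genes of brown adipocyte identity, Ucp1 and Cidea had TRBS within 30 kb, and Elovl3 and Adrb3 had none, beside 16.7% of all protein-coding genes with one. The strongest TRBS of Ucp1 had 362 fragments and that of Cidea had 13, beside a list median of 17, and occupancy near a gene is no measure of its expression.

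Thyroid hormone reaches the nucleus in steps. Membrane transporters carry T4 and T3 across the plasma membrane, and deiodinases then remove iodine from the outer ring, which turns T4 into the active T3, or from the inner ring, which inactivates both. T3 binds the nuclear receptors TRα and TRβ, which sit on DNA mostly as heterodimers with RXR and regulate nearby genes. In brown adipose tissue, DIO2 is known for local production of T3 during cold exposure. The distance between TRBS and these genes addresses whether the receptor occupies chromatin near the genes that supply its hormone or encode the receptors.

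The sequences under the main summits are shown first because the comparison with the DR4 element turns on them. DR4 is the receptor's classical element, a direct repeat of AGGTCA with a spacer of 4 bp, written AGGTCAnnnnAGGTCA. Below are 300 bases around 2 summits, read on the plus strand of RefSeq GRCm38.p6, which has the coordinates of the mm10 build of the files. They are the TRBS of Thrb and of Dio3, the strongest of the 14. Capitals mark exact half-sites, AGGTCA or GGGTCA on either strand.
Thrb, 27186 bp upstream of the TSS, chr14:17632925-17633224: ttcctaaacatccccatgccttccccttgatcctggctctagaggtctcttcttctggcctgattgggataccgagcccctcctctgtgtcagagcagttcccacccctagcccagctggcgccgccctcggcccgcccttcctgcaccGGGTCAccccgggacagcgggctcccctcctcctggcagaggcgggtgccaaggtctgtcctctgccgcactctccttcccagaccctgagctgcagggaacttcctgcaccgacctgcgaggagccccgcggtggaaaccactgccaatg
Dio3, 94486 bp downstream of the TSS, chr12:110373404-110373703: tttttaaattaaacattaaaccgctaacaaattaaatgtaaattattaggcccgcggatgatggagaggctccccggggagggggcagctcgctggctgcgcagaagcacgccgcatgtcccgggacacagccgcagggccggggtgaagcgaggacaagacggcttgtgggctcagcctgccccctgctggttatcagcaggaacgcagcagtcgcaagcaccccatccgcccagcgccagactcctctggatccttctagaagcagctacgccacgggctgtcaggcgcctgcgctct
The Thrb window held 1 half-site, next to its summit, and the Dio3 window held none.

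The single elements of 16 bases below are those in 3 of the 14 TRBS with 2 mismatches to the 12 half-site bases of DR4, 5′ to 3′ on the strand of the element. Capitals mark bases that match DR4, and lower case marks mismatches and the spacer.
Thra, TRBS 97828 bp upstream, chr11:98642789-98642804, minus strand: AGGgCAgctgAGGgCA
Thra, TRBS 33327 bp downstream, chr11:98773139-98773154, plus strand: AGcTCAaggttGGTCA
Dio1, TRBS 79572 bp upstream, chr4:107386600-107386615, minus strand: AGGTCctgtaAGGcCA
The elements of Thra and Dio1 shown here lay 13.5, 818.5 and 133.5 bp from their summits.

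The 9 genes differed in how close the receptor was found. A TRBS lay within 30 kb of Thra (3 TRBS), Thrb (1) and Dio1 (1), which is 3 of 9 genes (33.3%), against 16.7% of all 21938 protein-coding genes. Among TRBS scoring 60 or more, the study's threshold, 2 of the 9 genes kept one, beside 14.1% of all genes. Among TRBS scoring 100 or more, only Thrb of the 9 genes kept one, beside 11.3% of all genes. Within 100 kb, Dio2, Dio3 and Slco1c1 were added with 1 TRBS each, Thra rose to 7 and Dio1 to 3, which made 6 of 9 genes (66.7%) against 38.3% of all genes. With 9 genes chosen for their function, and with earlier results of these data known, these shares are counts beside a background. No TRBS lay within 100 kb of Slc16a10, Slc7a8 and Crym. No member had a TRBS within 5 kb of its TSS, where 5.63% of all genes had one.

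**Figure D1:**
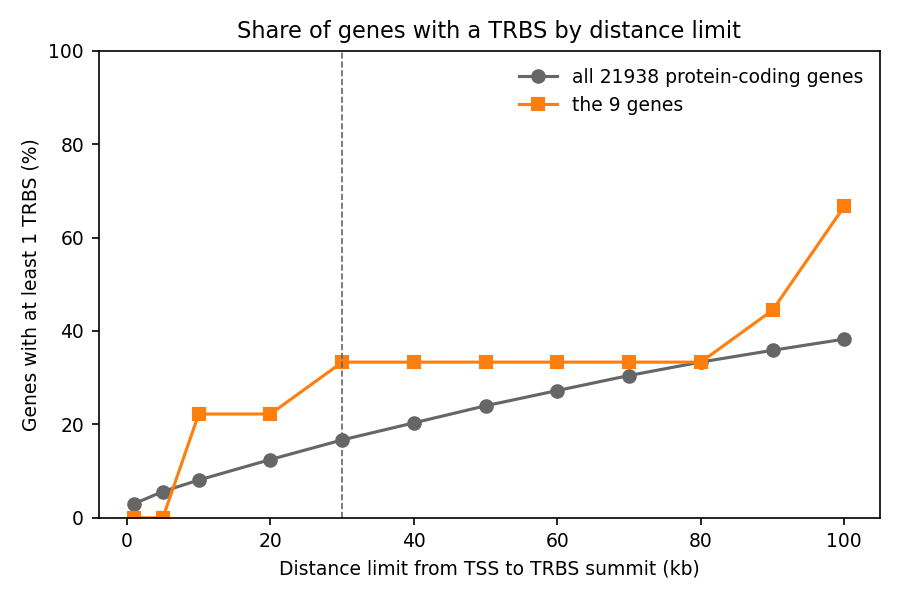
Share of genes with at least 1 TRBS (y axis, percent) against the largest distance allowed between summit and TSS (x axis, kb), for the 9 genes and for all 21938 protein-coding genes. The 9 genes were at 0% up to 5 kb, at 33.3% from 30 to 80 kb, where all genes rose from 16.7% to 33.4%, and at 66.7% at 100 kb, where all genes were at 38.3%.

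Strength is given as ChIP fragments at the summit, recovered from the deposited fold and p-value, with a 95% Poisson interval that covers counting error only. The fold is the ratio of ChIP to local input pileup after 1 was added to both, and the score is 10 times the −log10 of the q-value, rounded down. Library totals were not used here. The lowest number in the list was 5 fragments, seen with an input background under 0.5, and the lowest with a score of at least 60 was 9. Weaker occupancy near a gene without a TRBS was not detectable at this depth, and 5 need not suffice at a higher background. The median TRBS of the list had 17 fragments (quartiles 11 and 27) and a fold of 9.83. The 14 TRBS had a median of 15 fragments and ranged from 7 to 123, and the fold ranged from 5.59 to 70.6. The input background at their summits ranged from 0.430 to 1.52 fragments on the ChIP scale, beside a list median of 0.672.

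**Figure D2:**
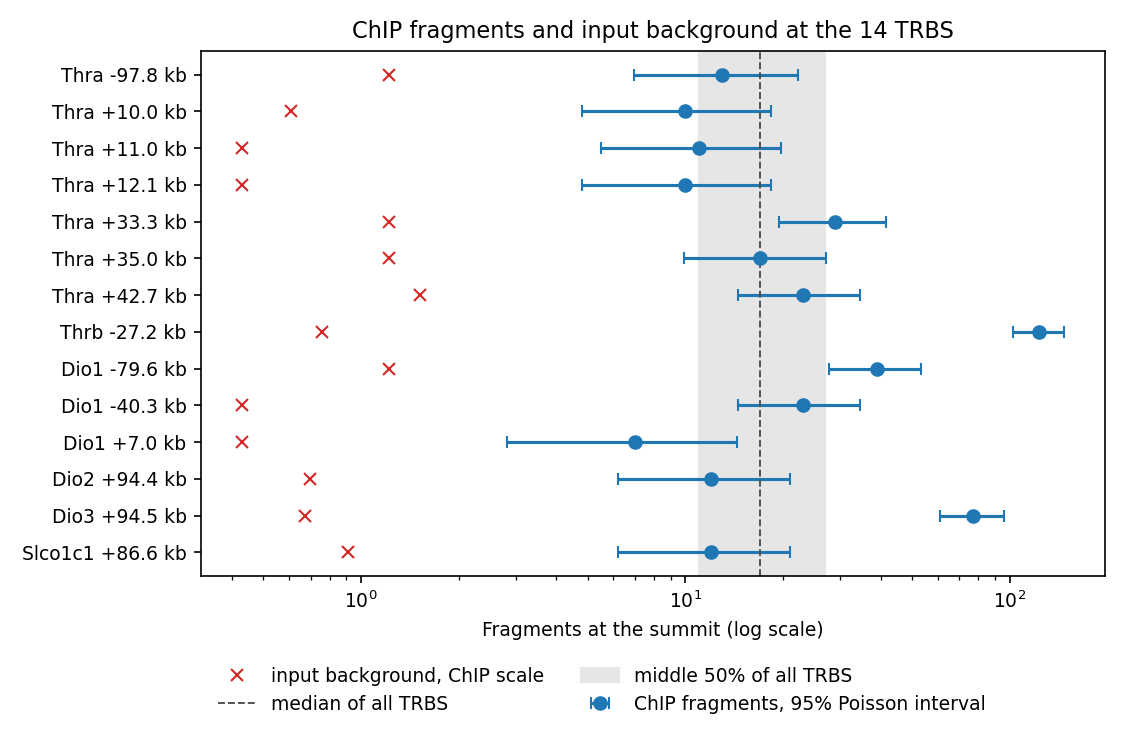
ChIP fragments (points, with 95% Poisson intervals that cover counting error only) and input background (crosses) at the summit of each of the 14 TRBS, on a log axis, with the median (dashed line) and middle 50% (grey) of all TRBS. The TRBS of Thrb (123 fragments) and of Dio3 (77) stand above the other 12, which had 7 to 39, while the backgrounds lie between 0.430 and 1.52.

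Thrb encodes TRβ, the receptor that dominates the hormone response in liver. Its only TRBS within 100 kb lay 27186 bp upstream of the TSS, at chr14:17632756-17633419, in intergenic sequence with no other protein-coding TSS within 100 kb of that of Thrb. It had 123 fragments at the summit (95% interval 102 to 147), a fold of 70.6 and a score of 2169. By fragments it ranked 28 of the 5090 TRBS with a recovered number, and by fold and score it ranked 17 and 36 of 5107. It was the strongest of the 14, and its interval lay above that of each of the others. Among genes with a TRBS within 30 kb, 99.2% had a strongest TRBS weaker than this one. For scale, the strongest TRBS within 30 kb of Klf9 and Hr, well-known targets of the receptor, had 91 and 59 fragments. That of Hr lay 24771 bp from the Hr TSS and was nearest to Nudt18. Within 30 kb, Hr had 7 TRBS and Klf9 had 2.

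The closest match to DR4 in the Thrb TRBS had 3 mismatches, gGGTCAccccgGGaCA on the plus strand, centred 6.5 bp from the summit. Its half-site, GGGTCA, was centred 1.5 bp from the summit and was the only one in the 664 bp of the peak. A best element with 3 mismatches was common, since 40.5% of all TRBS had one, and 22.5% of those had it within 10 bp of the summit, against 7.51% of those flanking windows of 300 bases whose best element also had 3 mismatches. The peak had 61.3% GC, against a list median of 51.1%.

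**Figure D3:**
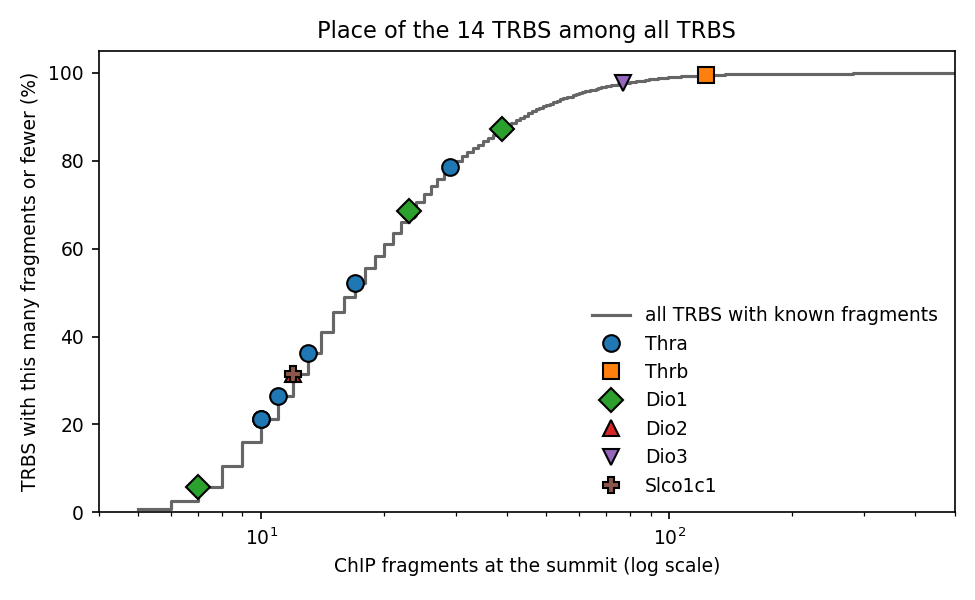
Percent of the 5090 TRBS with a recovered number of fragments that had a given number or fewer (y axis) against fragments at the summit (x axis, log scale), with the 14 TRBS marked by gene. The TRBS of Thrb and Dio3 lie at the top of the curve, with 99.4% and 97.5% of these TRBS holding fewer fragments, and symbols overlap where TRBS share a number, as do Dio2 and Slco1c1 with 12.

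A second TRBS lay within the Thrb gene, outside the distance rule. It was intronic, at chr14:18022513-18022793, and 362400 bp downstream of the TSS, in a gene 377830 bp long. The TSS used here is the 5′ end of the gene. The transcript Thrb-202, annotated as the principal one, starts 321268 bp downstream of it and had 0 TRBS within 30 kb, so the upstream TRBS lies within 30 kb of the 5′ starts of Thrb only. The intronic TRBS lay 41132 bp downstream of the Thrb-202 start. With 8 fragments (3.45 to 15.8) and a fold of 5.12 it was among the weakest of the list, of which 5.76% had fewer fragments. It held 4 half-sites and the element AGtTCAgatgAGGTCA, at chr14:18022593-18022608 on the plus strand, with 1 mismatch, centred 60.5 bp from the summit. The weak TRBS of this gene thus held the closer DR4 match, and the strong one did not. It was described because it lies in the gene and was chosen after its values were seen.

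Thra encodes TRα1, the receptor that was precipitated, and the variant TRα2, which does not bind T3. Its 3 TRBS within 30 kb lay 9990, 10954 and 12057 bp downstream of the TSS, with summits 964 and 1103 bp apart, in intron 1 of 3 coding transcripts. The first, at chr11:98750478-98750769, had 10 fragments (4.80 to 18.4) and a fold of 6.84. The second, at chr11:98751055-98751931, had 11 fragments (5.49 to 19.7) and a fold of 8.39. The third, at chr11:98752320-98752812, had 10 fragments (4.80 to 18.4) and a fold of 7.69. Their intervals overlapped throughout, and all 3 were at or below the lower quartile of the list.

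These 3 summits lay 2958, 1994 and 891 bp upstream of the start codon. Another annotated transcript, Thra-203, begins at that start codon, 12948 bp downstream of the gene's TSS, with no untranslated bases annotated before it. The third summit lay 891 bp upstream of this annotated start, and whether transcription starts there was not tested. The best DR4 match had 4 mismatches in each of the 3, as in 24.9% of all TRBS. Half-sites were found only in the second, which held 2, the nearer one 187.5 bp from the summit. A gene with 3 or more TRBS within 30 kb was uncommon, at 1.75% of all protein-coding genes. The edges of these 3 peaks lay only 285 and 388 bp apart. When TRBS with edges within 1000 bp of each other were joined, the 3 became a single TRBS. Thra then no longer stood out by number, since 16.7% of all genes had a joined TRBS within 30 kb. The number within 30 kb of the 9 genes fell from 5 to 3.

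Nr1d1, which encodes the circadian repressor REV-ERBα, is read from the opposite strand towards Thra, and its TSS lies past the end of Thra. The TRBS 33327 bp from the Thra TSS, at chr11:98772972-98774162, had 29 fragments (19.4 to 41.6) and a fold of 13.5. It lay in an intron of Nr1d1, 1368 bp downstream of that gene's TSS and 4959 bp past the end of Thra, and it was the strongest TRBS within 100 kb of Thra. The TRBS 35041 bp from the Thra TSS, at chr11:98775567-98775870, had 17 fragments (9.90 to 27.2) and lay in the Nr1d1 promoter. The one at 42713 bp, at chr11:98783085-98783564, had 23 fragments (14.6 to 34.5) and was also nearest to Nr1d1. All 3 were therefore closer to Nr1d1 than to Thra. The DR4 element with 2 mismatches in the first lay 818.5 bp from the summit, near the edge of a peak 1191 bp wide.

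The remaining Thra TRBS lay 97828 bp upstream, at chr11:98642616-98642971, with 13 fragments (6.92 to 22.2) and a fold of 6.31. Its nearest gene was Gsdma2, and its element with 2 mismatches was centred 13.5 bp from the summit. With 7 TRBS within 100 kb, Thra was in the 0.802% of genes that had 7 or more. This number counts the 3 intronic TRBS separately. Joining them lowered the total within 100 kb of the 9 genes from 14 to 12, and the matching share of all genes was not computed. The TSSs of 9 other protein-coding genes also lay within 100 kb of the Thra TSS, against 0 around Thrb, Dio2 and Dio3.

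**Figure D4:**
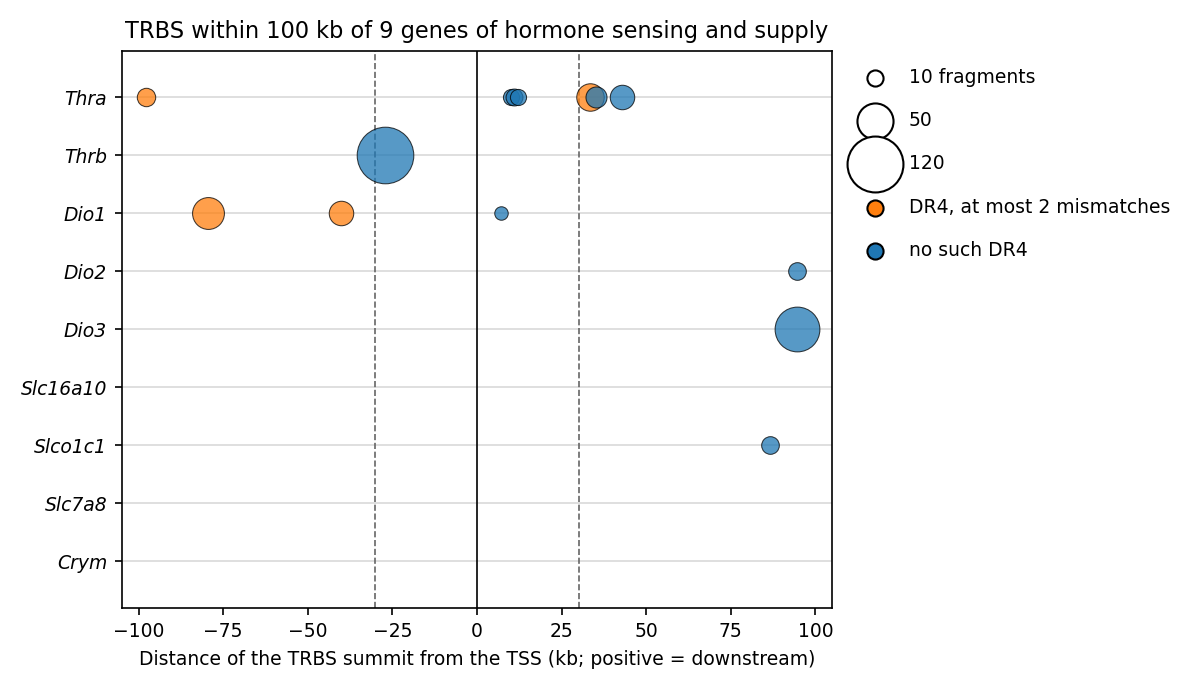
Position of each TRBS (x axis, kb, positive downstream of the TSS) for the 9 genes, with symbol area by fragments at the summit, colour by the presence of a DR4 element with at most 2 mismatches, and dashed lines at 30 kb. Thra shows 3 TRBS close together near +10 to +12 kb, Thrb a single strong TRBS upstream, and Slc16a10, Slc7a8 and Crym none.

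Dio1 encodes a deiodinase of liver, kidney and thyroid that can act on both rings and is a well-known hormone target. Its only TRBS within 30 kb, at chr4:107300004-107300287, lay 7043 bp downstream of the TSS in intron 1 of the principal transcript, with 7 fragments (2.81 to 14.4), a fold of 5.59 and a score of 44. It was the weakest of the 14, and the only one with a score under 60. It held no half-site, and its best element had 3 mismatches. Among genes with a TRBS within 30 kb, 1.72% had a strongest TRBS weaker than this.

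Upstream of Dio1 the TRBS were stronger. That 40275 bp upstream had 23 fragments (14.6 to 34.5), a fold of 16.8 and a background of 0.430, the lowest of the list and shared by 4 of the 14. It held 5 half-sites, while 6.66% of all TRBS held 4 or more, and 3 overlapping DR4-like elements with 1 mismatch each, centred 11.5 to 21.5 bp from the summit. A DR4 match this close, with 1 mismatch or none, was found in 7.23% of all TRBS and in only this one of the 14. It lay in an intron of Yipf1, and the nearest protein-coding TSS was that of Ndc1. The TRBS 79572 bp upstream, at chr4:107386482-107386938, had 39 fragments (27.7 to 53.3) and a fold of 18.0. It was in an intron of Ndc1, and its element with 2 mismatches lay 133.5 bp from the summit. By position alone, both were nearer to other genes than to Dio1.

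Dio2 encodes the outer-ring deiodinase of brown fat. No TRBS lay within 30 kb of its TSS. The only one within 100 kb lay 94426 bp downstream, at chr12:90643902-90644233, 80540 bp past the end of the gene, with 12 fragments (6.20 to 21.0) and a fold of 7.66. Dio2 was its nearest protein-coding gene. Its best element within the peak had 3 mismatches, and an element with 2 mismatches, AGGTaAaataAGaTCA, lay just outside the edge of the peak at chr12:90643879-90643894.

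Dio3 encodes the inner-ring deiodinase, which inactivates T4 and T3, and is an imprinted gene. Its only TRBS within 100 kb lay 94486 bp downstream, at chr12:110373158-110373805, and was the second strongest of the 14. It had 77 fragments (60.8 to 96.2), a fold of 46.6 and a score of 1237, and ranked 120 of 5090 by fragments. Its interval overlapped neither that of the Thrb TRBS nor those of the other 12. The nearest protein-coding TSS was that of Ppp2r5c, 73566 bp away. It held no half-site at all, and its best DR4 match, gGGTgAagcgAGGaCA, had 3 mismatches and was centred 0.5 bp from the summit. A motif of the adipocyte factor EBF, TCCCNNGGGA, was found in it, as in 4.54% of all TRBS. Within 100 kb, the strongest TRBS of the deiodinase genes had 39 fragments for Dio1, 12 for Dio2 and 77 for Dio3, and the intervals of these 3 did not overlap.

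Slco1c1 encodes OATP1C1, a T4 transporter best known at the blood-brain barrier. Its only TRBS within 100 kb, at chr6:141610859-141611174, lay 86573 bp downstream of the TSS with 12 fragments (6.20 to 21.0) and a fold of 6.80. The same TRBS lay 18577 bp upstream of the TSS of Slco1b2, which was its nearest gene. Slc16a10 (MCT10) and Slc7a8 (LAT2) encode transporters of amino acids that also carry thyroid hormone. The nearest summit lay 410644 bp from the Slc16a10 TSS, with 10 fragments, and 212846 bp from the Slc7a8 TSS, with 16. For Crym the nearest lay 240950 bp away, with 24 fragments.

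Across the 14 TRBS, 4 held a DR4 element with at most 2 mismatches (28.6%), against 32.0% of all TRBS, and none of the 4 lay within 30 kb of a member. A half-site was present in 8 (57.1%), against 72.5% of all TRBS. Of the 5 TRBS whose best element had 3 mismatches, 3 had it centred within 10 bp of the summit, beside 22.5% of all TRBS with such a best element. The C/EBP motif, TTGCNNAA on either strand, was present in 3 of 14, beside 25.3% of all TRBS. A match describes letters in the sequence and is not a measured contact.

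Most DR4-like sequence near these genes lay outside the TRBS, as in the genome as a whole. Within 30 kb of the 9 TSSs the genome held 92 elements with at most 2 mismatches, from 3 around Slco1c1 to 19 around Slc7a8, and 0 of them lay in a TRBS. The genome mean was 6.39 elements in 1 window of this size, and 21.3 in 1 window that reaches 100 kb to either side. Within 100 kb of the 9 TSSs there were 304, of which 6 lay in a TRBS, 4 near Dio1 and 2 near Thra. In the whole genome 0.711% of such elements lay in a TRBS.

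The rest of the hormone pathway was read from 6 lists with 40 other genes. Of these, 7 (17.5%) had a TRBS within 30 kb and 12 within 100 kb, beside 16.7% and 38.3% of all genes. Among the 3 RXR genes, the receptor's partners, Rxrb had 3 TRBS, the strongest 787 bp downstream of its TSS with 31 fragments (21.1 to 44.0), and Rxra had 1, 26064 bp downstream, with 11. Rxrg had none. Of 10 other transporter genes, Slco4a1 had 2 TRBS, and the strongest of these, 13659 bp downstream, had 118 fragments (97.7 to 141), a fold of 34.6 and a DR4 element with 2 mismatches. Slco1b2 had the TRBS already described for Slco1c1.

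Of 3 genes of hormone conjugation and iodotyrosine deiodination, Iyd, which recycles iodide, had 1 TRBS 11110 bp downstream of its TSS with 22 fragments. Of 7 genes of selenoprotein synthesis and deiodinase turnover, Marchf6, a ubiquitin ligase that acts on DIO2, had 1 TRBS 884 bp downstream with 12 fragments and a score of 50. Of 14 genes of the thyroid gland and its axis, 1 had a TRBS within 30 kb. The receptor for thyrotropin, Tshr, had its TRBS 30778 bp downstream, just outside the limit, with 8 fragments. None of 3 serum carrier genes had one within 100 kb.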

How the data were processed

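The authors aligned paired-end reads to mm10 and called peaks in the ChIP library over the input, with Bowtie2 2.3.2.2 and MACS2 2.1.1.20160309.6 named in the submitters' processing notes. The deposited list gives, per peak, a score, the fold (a ratio of ChIP to input at the summit) and the −log10 p-value and −log10 q-value. The study's methods dropped scores under 60, but 897 of the 5107 deposited peaks are under 60, and all were kept here.

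Fragments at each summit were worked out from the fold and the p-value. For 5090 peaks (99.7%) a whole number gave the deposited −log10 p within 0.0005, and for 5052 only 1 number did. Intervals are exact Poisson intervals at 95% and cover counting error only, since the libraries carried no molecular identifiers as far as the sources state. Genes were the 21938 protein-coding genes of GENCODE M21, with 1 TSS each. DR4 was searched in the whole peak on both strands with at most 2 mismatches over 12 half-site bases, and on ties the element nearest the summit was taken. Flanks were windows of 300 bases 2 kb from the summit. The half-site search allowed no mismatch.

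Every TRBS within 30 kb of a member was named, and beyond it those that were strongest for their gene or held a DR4 element. The 2 further TRBS near Nr1d1, the TRBS inside Thrb, the element outside the Dio2 peak and Tshr fall outside this rule and were named after their values were seen. In the pathway lists, each gene with a TRBS within 30 kb was to be named, and 1 of them, with some sequence near Dio1, is not reported here. The members and lists were chosen with earlier results of these data known. Alternatives moved the distance limit, the TSS, the score threshold, the merging of peaks and the mismatches. Steps were tested on simulated data. Analysis used Python 3.11.15, numpy 2.4.6, pandas 2.3.3, scipy 1.17.1 and pysam 0.24.0.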

Additional observations from a re-analysis of the deposited data

How the results depend on the processing

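With 1 ChIP library, no replicate could be left out. No paired analysis was possible because each group held 1 library and no result came from a test. Of 36 alternative values, 24 stayed within a factor of 1.5 of those reported and 12 moved further. By this measure a fall from 3 genes within 30 kb to 2, at a score of at least 60, counted as close. The number of TRBS within 30 kb, 5 as reported, became 8 with any transcript start as the TSS, 2 with a limit of 10 kb, 9 with 50 kb, 3 after TRBS within 1000 bp were joined, and 1, that of Thrb, with a score of at least 100. That threshold left 7 of the 14 TRBS within 100 kb and 1 of the 3 genes within 30 kb, so 1 of 9 beside 11.3% of all genes, and a limit of 100 kb gave 6 genes. The 4 TRBS with a DR4 element became 1 with at most 1 mismatch, beside 7.23% of all TRBS, 9 with at most 3, beside 72.5%, and 2 when only 100 bp on either side of the summit were searched, beside 27.1%. The share of all genes with a TRBS, 16.7% at 30 kb, was 8.09% at 10 kb. A score of at least 60 removed the intronic Dio1 TRBS. Fragments under the other convention of the Poisson tail were not run through, since it gave whole numbers for 4 of 5107 peaks. The small numbers of fragments limit the order of the weaker TRBS.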

Other observations

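The proximal promoters of the members were searched as well, from 250 bases upstream to 50 bases downstream of the start in the RefSeq promoter table of GRCm38.p6. It held 8 promoters of 7 members, and Thra and Crym were not searched. A TRBS overlapped 0 of the 8. The share of all promoters that overlap a TRBS was not computed. In a wider window and by summit, 3.02% of all protein-coding genes had a TRBS within 1 kb of the TSS. The best DR4 match had 3 to 5 mismatches, so 0 of 8 held an element with at most 2, against 3.02% of 32851 promoters. A half-site was present in 1 of 8, against 27.5% of all promoters.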
